A study of Mus musculus with 3 samples.

Results

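The genes described here are 10 genes of bile acid handling in the liver: Cyp7a1, Cyp8b1, Cyp27a1 and Cyp7b1 of synthesis, Slc27a5 and Baat of conjugation, Slc10a1 and Abcb11 of transport, and Nr1h4 and Nr0b2 of control. They were taken by name, as all non-control spots whose gene name on the array equals one of these symbols, and they make up 10 of 31870 genes, 12 of 39395 probes and 21 of 43020 spots. RNA came from hepatocytes freed with collagenase from the livers of wild-type male C57BL/6 mice aged 22 weeks that had been fasted overnight, and each of 3 groups was measured on 1 single-colour (Cy3) array. The standard-diet group ate standard chow for 16 weeks from the age of 6 weeks and has no injection in the labels. The HFD-IgG group ate a high-fat diet for the same 16 weeks and, after its first 10 weeks, got control IgG into the peritoneum 2 times a week for 6 weeks. The anti-VLA-4 group ate the same diet and got an antibody that blocks VLA-4, an integrin of leukocytes, on the same schedule. Diet and injection thus differ together between standard diet and HFD-IgG, and the number of mice behind an array is not in the labels.

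Hepatocytes make bile acids from cholesterol. The classical pathway opens with Cyp7a1, its rate-limiting enzyme, and Cyp8b1 steers its product towards cholic acid, while the alternative pathway runs through Cyp27a1 and Cyp7b1. Slc27a5 and Baat then join bile acids to taurine or glycine, Slc10a1 (NTCP) takes them up from blood, and Abcb11 (BSEP) exports them into bile. Bile acids activate the nuclear receptor FXR, encoded by Nr1h4, which induces Abcb11 and Nr0b2. The Nr0b2 product, SHP, is a corepressor that lowers Cyp7a1 and Cyp8b1.

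The sequences shown first are promoters of Abcb11, Nr0b2 and Cyp8b1, because their levels are central below and because each is tied by textbook knowledge to FXR, SHP or the activators that SHP restrains. Each window runs from 250 bases before the gene's start to 50 after it (RefSeq, build GRCm38.p6), and RefSeq windows were matched for 6 of the 10 genes. Capitals mark matches, on either strand, to the inverted repeat bound by FXR (AGGTCA, any 1 base, TGACCT, up to 1 mismatch in all), the core of the site of LRH-1, an activator of Cyp7a1 and Cyp8b1 (CAAGGTCA, up to 1 mismatch), or the core of the site of HNF4A (CAAAGTCCA, no mismatch).

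Abcb11, chr2:69342567-69342866, minus strand: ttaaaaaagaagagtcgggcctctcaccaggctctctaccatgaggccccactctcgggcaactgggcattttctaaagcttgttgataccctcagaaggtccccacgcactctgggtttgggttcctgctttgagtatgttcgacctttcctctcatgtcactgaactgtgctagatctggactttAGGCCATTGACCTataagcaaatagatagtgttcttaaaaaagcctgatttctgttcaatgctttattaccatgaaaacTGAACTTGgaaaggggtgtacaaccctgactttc
Nr0b2, chr4:133553126-133553425, plus strand: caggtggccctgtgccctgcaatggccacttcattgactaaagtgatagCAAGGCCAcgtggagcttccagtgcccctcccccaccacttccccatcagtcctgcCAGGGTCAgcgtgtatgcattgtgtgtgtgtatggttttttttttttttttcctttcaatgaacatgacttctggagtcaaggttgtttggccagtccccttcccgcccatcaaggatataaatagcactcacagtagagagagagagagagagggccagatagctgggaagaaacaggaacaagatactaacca
Cyp8b1, chr9:121916256-121916555, minus strand: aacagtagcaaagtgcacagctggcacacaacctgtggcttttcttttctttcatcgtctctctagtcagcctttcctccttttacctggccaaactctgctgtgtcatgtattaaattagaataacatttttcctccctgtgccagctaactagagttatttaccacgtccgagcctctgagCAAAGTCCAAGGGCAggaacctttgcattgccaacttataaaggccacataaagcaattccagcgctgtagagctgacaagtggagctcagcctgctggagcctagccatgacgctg

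The Abcb11 window held the FXR repeat with 1 mismatch, from 63 to 51 bases before the gene's start. Matches of that quality were present in 27 of 32851 promoter windows, or 0.0822%. In the Cyp8b1 window the HNF4A core lay 67 to 59 bases before the start and overlapped by 2 bases an LRH-1 match of 1 mismatch. HNF4A cores were present in 0.475% of windows and LRH-1 matches in 23.0%. Nr0b2 had 2 LRH-1 matches, both with 1 mismatch, and no match to the FXR repeat. The windows of Cyp27a1, Nr1h4 and Slc10a1, which are not printed, held none of these sites. Matches are letters in a window and do not show binding, and their absence from a window does not exclude it.

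Slc10a1 is shown by its probes, because its 2 probes gave different directions. The first 30 of the 60 bases of each are printed, with 18 bases in capitals that belong to the consensus of B1, a short interspersed repeat carried in many mouse transcripts.

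Slc10a1, brighter probe, chr12:82056539-82056598 (mm9), minus strand: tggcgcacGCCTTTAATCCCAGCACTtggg
Slc10a1, other probe, chr12:82061470-82061529 (mm9), minus strand: cctacaaaggcattatgttatcactcgtca

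Of all probes on the array, 3 held those 18 letters. The other two are annotated to Csf3r, a receptor gene of neutrophils, and to the predicted gene Gm13241. Their levels were 66.2, 69.7 and 58.3 for Csf3r and 75.5, 88.7 and 83.8 for Gm13241 on the standard-diet, HFD-IgG and anti-VLA-4 arrays. Here and below a level is the scanner's processed signal divided by the 75th percentile of that array's non-control spots. Whether the brighter Slc10a1 probe measures Slc10a1 alone was not tested, so both probes are given, and the other one is read first.

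No group has a second array. No p-value is therefore given, and a difference is described by its size, with at least 2-fold as the fixed mark and the scanner's own error beside it, which covers 1 spot and not the spread between mice or preparations. For each of the 12 probes that error was 10.0% of the signal, or 0.20 in log2 for a difference between arrays. All 12 probes were well above background on all 3 arrays, and 0 spots of any gene were saturated. Between 57.3% and 66.5% of all non-control spots were well above background. Slide 1 carried standard diet and HFD-IgG and slide 2 anti-VLA-4, and in every comparison with anti-VLA-4 the slide and the group cannot be told apart. The 16 hepatocyte markers on the array (Alb, Ttr and others) were all well above background in each group, with summed levels of 4909 on standard diet, 4795 on HFD-IgG and 4270 on anti-VLA-4, and they bear out the labelled cell type.

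**Figure D1:**
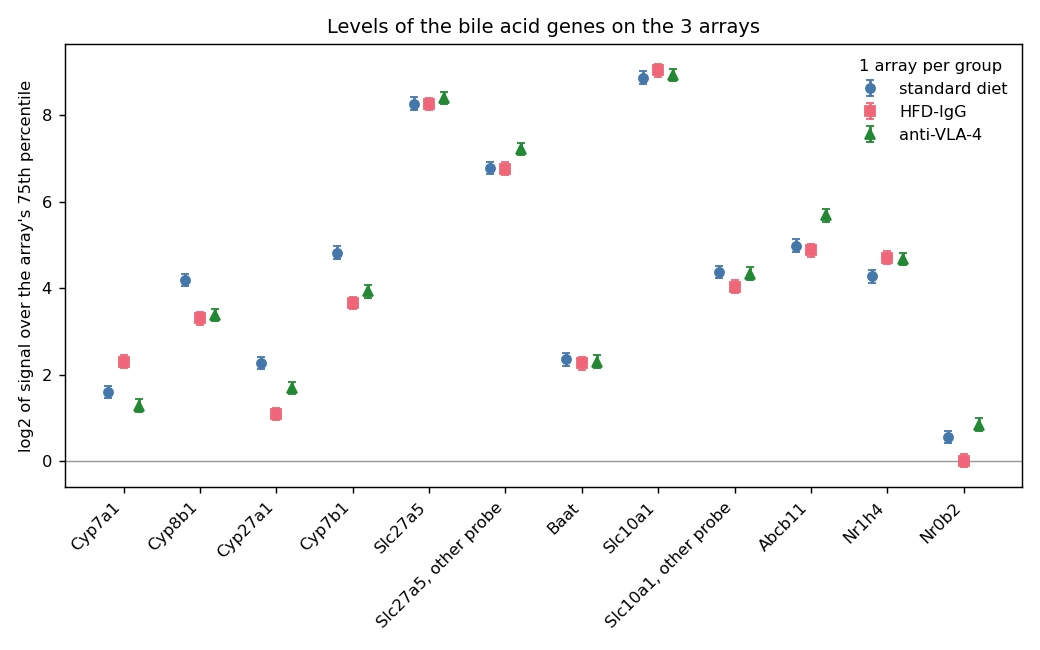
Log2 level of each of the 12 probes of the 10 genes (x axis) as signal over the array's 75th percentile (y axis), with 1 point per array and the scanner's error as bar. Cyp7a1 is highest on the HFD-IgG array and Nr0b2 lowest there, while Cyp8b1, Cyp27a1 and Cyp7b1 are highest on the standard-diet array.

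On the high-fat diet with IgG, the enzymes of synthesis split. Cyp27a1, Cyp7b1 and Cyp8b1 were lower than on standard diet and Cyp7a1 was higher, while the conjugation enzymes lay within the scanner error. A 2-fold or larger difference was seen for 2 of the 10 genes, both lower, with 0 higher and the other 8 short of it. Among all 22001 genes compared, those well above background on at least 1 of both arrays, 2.41% were 2-fold lower and 20.4% higher. Because the 10 genes are bright, the 8647 whose level exceeded the 75th percentile on at least 1 of both arrays (called bright below) are a closer background, and of these 1.93% were lower and 4.27% higher. In either direction the shares were 22.9% of all and 6.20% of bright genes. The median of the 10 was -0.11 in log2, against 0.04 over all genes and -0.10 over the bright ones.

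With anti-VLA-4 set against HFD-IgG, Cyp7a1 was lower while Nr0b2 and Abcb11 were higher. Only Cyp7a1 passed the 2-fold mark, 1 gene of 10 at least 2-fold lower and 0 higher. Over all 22589 genes 16.5% were lower and 1.90% higher, and over the 8562 bright ones 1.30% and 0.806%. In either direction these shares were 18.4% and 2.10%. The median of the 10 genes was 0.11, against -0.06 over all genes and -0.01 over the bright ones. Against standard diet, none of the 10 was 2-fold different on the anti-VLA-4 array, where 11.4% of 20334 genes (7.99% higher and 3.39% lower) and 4.89% of 8575 bright genes (3.34% higher and 1.55% lower) were. That median was 0.01, against 0.00 over all and -0.10 over bright genes. The 3 comparisons share arrays in pairs, so a high value on the HFD-IgG array shows as higher in the first and as lower in the second.

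**Figure D2:**
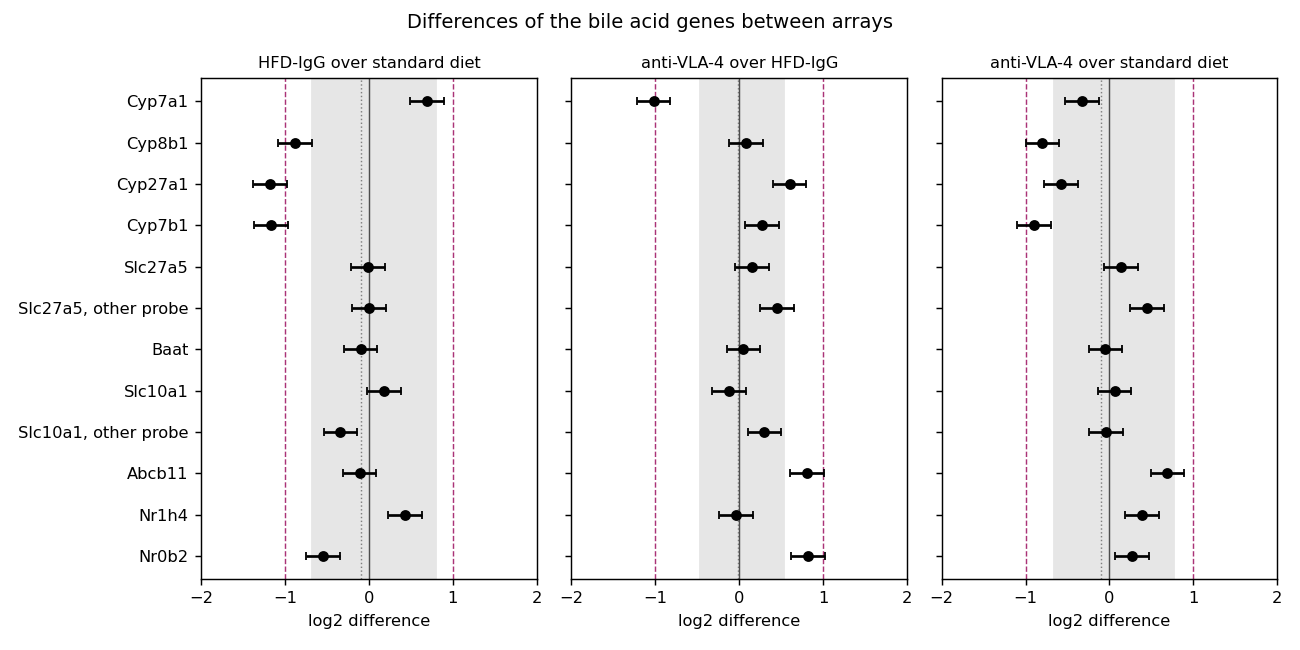
Log2 difference (x axis) of each probe of the 10 genes (y axis) in the 3 comparisons, with the scanner's error as bar, dashed lines at 2-fold, and a grey band from the 5th to the 95th percentile of the bright genes with their median dotted. Cyp27a1 and Cyp7b1 lie beyond the 2-fold line in the first panel and Cyp7a1 in the second. Nr0b2, Abcb11 and Cyp27a1 lie above the band in the second. Among bright genes with probes in its own range of purine content, Cyp27a1 was above 93.4% there. The signs of Baat, Slc27a5, Nr1h4 and both Slc10a1 probes turn with the scaling in at least 1 panel.

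Cyp7a1, the entry enzyme of the classical pathway (probe at chr4:6193456-6193515, mm9, minus strand), had levels of 3.06 on standard diet, 4.95 on HFD-IgG and 2.44 on anti-VLA-4. The HFD-IgG array was thus the highest and the anti-VLA-4 array the lowest. Over standard diet, HFD-IgG was 1.62-fold higher (log2 difference 0.69), a value above that of 94.2% of bright genes. From HFD-IgG to anti-VLA-4 the level was 2.03-fold lower (-1.02), and 1.20% of bright genes had a lower value. Among bright genes whose probes have at most 40% purines, as that of Cyp7a1 does, 0.249% had a lower value. In that purine class 1.58% of bright genes were at least 2-fold higher in this comparison and 0.332% lower. The anti-VLA-4 array was 1.25-fold below standard diet (-0.33), more than 1 scanner error and less than 2. Over the 4 other scalings the first 2 differences ranged from 0.23 to 0.80 and from -1.06 to -0.66, in each case keeping their sign, and the value nearest to 0 came from normexp background correction.

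Cyp8b1, which sets the share of cholic acid (probe at chr9:121824595-121824654, minus strand), had levels of 18.2, 9.91 and 10.5 in the same order of arrays. Both high-fat diet arrays were low and the standard-diet array high. HFD-IgG was 1.84-fold lower than standard diet (-0.88), and 2.50% of bright genes had a lower value. Anti-VLA-4 differed from HFD-IgG by 0.08, within the scanner error, and was 1.74-fold below standard diet (-0.80). On the HFD-IgG array Cyp8b1 and Cyp7a1 thus differed from standard diet in opposite directions. The difference of Cyp7a1 exceeded that of Cyp8b1 by 1.57 in log2 there (scanner error 0.29), and this gap between 2 differences, which needs no scaling by a constant, ranged from 1.55 to 1.65 over the other scalings.

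Cyp27a1, the mitochondrial enzyme that opens the alternative pathway (probe at chr1:74782203-74782262, plus strand), is the one gene of the 10 whose probe was spotted 10 times. Its levels were 4.87, 2.15 and 3.25, and the spots ran from 4.57 to 5.38 on standard diet, from 1.96 to 2.43 on HFD-IgG and from 3.02 to 3.44 on anti-VLA-4. The 3 sets of spots did not overlap. The share of other repeatedly spotted probes that separate in this way is not given, so this is not shown to be particular to Cyp27a1. On HFD-IgG it was 2.27-fold lower than on standard diet (-1.18), with the 10 spot differences between -1.28 and -1.04. Its level on anti-VLA-4 was 1.51-fold above HFD-IgG (0.60) and stood at -0.58 in log2 against standard diet. The difference from HFD-IgG was above that of 96.4% of bright genes. Its probe falls in the same purine class as that of Cyp7a1, and within that class the difference was above 93.4%. The SD over spots of one array was 0.06 to 0.10 in log2, so the repeated spots place the anti-VLA-4 array between the others, within these 3 hybridisations.

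Cyp7b1, the hydroxylase that follows in the alternative pathway (probe at chr3:17972286-17972345, minus strand), had levels of 28.5, 12.6 and 15.3. Standard diet was the high array. HFD-IgG was 2.25-fold lower (-1.17) and anti-VLA-4 1.86-fold lower (-0.90) than standard diet, and anti-VLA-4 stood 1.21-fold above HFD-IgG (0.27), which is beyond 1 scanner error and short of 2. The differences of Cyp27a1 and Cyp7b1 on HFD-IgG were alike, -0.01 apart with a scanner error of 0.29, although the gap reached 0.33 under another scaling.

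The enzymes of conjugation varied little between standard diet and HFD-IgG. Slc27a5, the bile acid CoA ligase that prepares bile acids for conjugation, had levels of 309, 306 and 339 by its brighter probe (chr7:13573701-13573760, minus strand) and of 110, 109 and 149 by its other probe (chr7:13573924-13573983, minus strand). Both probes lay within the scanner error between standard diet and HFD-IgG. On anti-VLA-4 the brighter probe was 1.11-fold above HFD-IgG (0.15) and the other 1.36-fold (0.45), so they share a direction and differ in size. Against standard diet they were 1.10-fold (0.14) and 1.36-fold (0.45) higher. Both differences of the other probe on anti-VLA-4 were beyond 2 scanner errors, and both of the brighter one within 1. Baat, which attaches taurine or glycine (chr4:49502933-49502992, minus strand), had levels of 5.15, 4.81 and 4.97, all within the scanner error of each other. For Slc27a5 and Baat the sign against standard diet turned with the scaling.

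Of the transporters, Abcb11 was highest on the anti-VLA-4 array. The bile salt export pump (probe at chr2:69076365-69076424, minus strand) had levels of 31.9, 29.4 and 51.6. Standard diet and HFD-IgG differed by -0.11, within the scanner error. Anti-VLA-4 was 1.75-fold above HFD-IgG (0.81), higher than 98.4% of bright genes, and 1.62-fold above standard diet (0.69). Under the other scalings the difference from HFD-IgG was between 0.78 and 1.10. It passed 2-fold with normexp background correction alone.

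Slc10a1, the uptake carrier NTCP, had levels of 20.8, 16.5 and 20.2 by the probe without B1 letters. That probe put HFD-IgG 1.27-fold below standard diet (-0.34) and anti-VLA-4 1.23-fold above HFD-IgG (0.30), both beyond 1 scanner error and short of 2. By the brighter probe, with B1 letters, the levels were 467, 528 and 487. Its differences were 0.18 and -0.12, opposite in sign to those of the other probe and within the scanner error, and their sign turned with the scaling. Against standard diet, both probes had anti-VLA-4 within the scanner error, at 0.06 and -0.04.

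The receptor and its target differed in pattern. Nr1h4, which encodes FXR (probe at chr10:88917222-88917281, minus strand), had levels of 19.5, 26.3 and 25.6. Both high-fat diet arrays lay above standard diet, HFD-IgG by 1.35-fold (0.43) and anti-VLA-4 by 1.31-fold (0.39). The first of these was -0.17 with normexp, where the median of bright genes was -0.55. Anti-VLA-4 and HFD-IgG differed by -0.04, within the scanner error and with a sign that turned under normexp. Nr0b2, the gene of SHP (probe at chr4:133109694-133109753, plus strand), had levels of 1.49, 1.02 and 1.80. HFD-IgG was the lowest array for it, as it was the highest for Cyp7a1. The level was 1.46-fold lower on HFD-IgG than on standard diet (-0.55), 1.77-fold higher on anti-VLA-4 than on HFD-IgG (0.82, above 98.5% of bright genes) and 1.21-fold higher than on standard diet (0.27). With normexp the first difference was -0.47, which is 0.08 above that setting's median of bright genes, so the lower Nr0b2 on HFD-IgG is not set apart from other bright genes there.

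Set against each other within arrays, Cyp7a1 and Nr0b2 parted most between HFD-IgG and anti-VLA-4. Their differences stood 1.24 apart in log2 from standard diet to HFD-IgG and -1.84 apart from HFD-IgG to anti-VLA-4, with a scanner error of 0.29. Over the other scalings these gaps were 0.70 to 1.32 and -1.87 to -1.30. Cyp7a1 and Abcb11 stood -1.83 apart from HFD-IgG to anti-VLA-4, with -1.90 to -1.77 over the other scalings. Nr0b2 and Abcb11 had nearly the same difference there, -0.01 apart, although this reached 0.47 with another scaling. Cyp7a1 was also -1.62 apart from Cyp27a1 and -1.29 from Cyp7b1 in that comparison. So the enzymes of synthesis did not share a direction on either side of the HFD-IgG array.

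**Figure D3:**
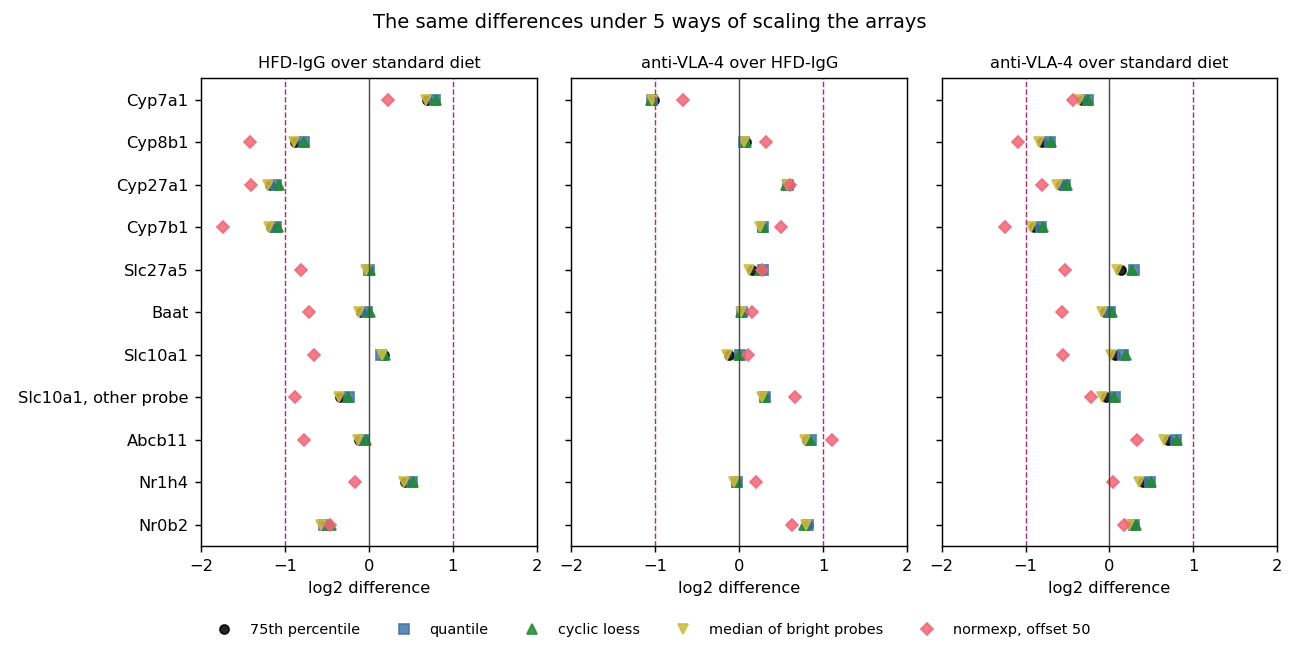
Log2 difference (x axis) of the 10 genes, with both probes of Slc10a1 (y axis), under 5 ways of scaling the 3 arrays, marked by colour and shape. Cyp7a1, Cyp8b1, Cyp27a1, Cyp7b1, Abcb11 and Nr0b2 keep their sign in all 3 panels, while those of Baat, Nr1h4, Slc27a5 and both Slc10a1 probes turn in at least 1, and normexp shifts most genes to the left in both panels against standard diet.

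Other genes of the pathway were taken from lists. Their 2-fold counts are to be read beside the shares over all genes compared. For HFD-IgG over standard diet these were 20.4% higher and 2.41% lower (bright genes 4.27% and 1.93%). For anti-VLA-4 over HFD-IgG they were 1.90% and 16.5% (bright genes 0.806% and 1.30%). For anti-VLA-4 over standard diet they were 7.99% and 3.39% (bright genes 3.34% and 1.55%). Of 15 further synthesis enzymes, 14 were compared between HFD-IgG and standard diet, of which 3 passed the 2-fold mark upwards and 0 downwards (median -0.01). Cyp2c70, which makes the muricholic acids of mice, had levels of 6.94 on standard diet, 22.6 on HFD-IgG and 33.1 on anti-VLA-4. This order runs from standard diet up to anti-VLA-4, with HFD-IgG 3.25-fold and anti-VLA-4 4.78-fold above standard diet, and the family has similar members that a probe may not separate. Akr1d1, the steroid reductase of the ring steps, had levels of 0.641, 1.54 and 1.98, or 2.39-fold and 3.08-fold above standard diet. Akr1c6, a hydroxysteroid dehydrogenase with close relatives, had levels of 136, 318 and 306, or 2.34-fold and 2.25-fold. Over the other scalings 1 to 3 of the 14 passed 2-fold higher on HFD-IgG and 2 to 3 on anti-VLA-4, both against standard diet. With anti-VLA-4 over HFD-IgG, 0 of 14 were 2-fold different (median 0.01).

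Hsd3b7, the next enzyme after Cyp7a1, was flat by comparison, with levels of 141, 136 and 158. Acox2, Amacr, Hsd17b4 and Scp2, of side chain shortening, were within 1.25-fold in each comparison. Ch25h was not well above background on any array.

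Among 14 further transporters compared between HFD-IgG and standard diet, 1 was 2-fold higher, 1 lower and 12 lay between (median -0.27). Slco1a1, an organic anion carrier of the sinusoidal side, had levels of 4.66, 0.919 and 2.68. It was 5.07-fold lower on HFD-IgG than on standard diet and 2.91-fold higher on anti-VLA-4 than on HFD-IgG, with the standard-diet array highest. Abcc4, an exporter into blood, was dim, with levels of 0.0609, 0.133 and 0.0856, and 2.18-fold higher on HFD-IgG, although this was 0.30 in log2 with one other scaling. Between anti-VLA-4 and HFD-IgG, 12 of the 14 lay above 0, with Slco1a1 alone 2-fold higher, and 2 lay below, 0 of them by 2-fold. The median was 0.40, against -0.06 over all genes and -0.01 over bright ones, and ran from 0.36 to 0.50 over the other scalings. The share of all genes above 0 is not given here. Abcg5 and Abcg8, the paired exporters of cholesterol into bile, had levels of 16.7, 15.4 and 22.8 and of 0.562, 0.396 and 0.640. Abcb4, which flips phosphatidylcholine into bile, had levels of 129, 84.6 and 80.6, with both high-fat diet arrays low.

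Regulators outside the 10 were mostly within 2-fold. Of 21 compared between HFD-IgG and standard diet, 2 were higher and 0 lower (median -0.15), although up to 6 were lower under another scaling. With anti-VLA-4 over HFD-IgG 0 of 20 were higher and 1 lower (median 0.18). Fgfr4 and Klb, which form the receptor for the ileal hormone FGF15 that lowers Cyp7a1, had levels of 8.76, 9.71 and 10.1 and of 2.56, 2.26 and 3.12. No value of either stood beyond 1.38-fold. The largest differences were Vdr, the vitamin D receptor, and Nr2f1, an orphan nuclear receptor, both at probes of 66.7% purines. For Vdr, HFD-IgG was the single array well above background, where it was at least 14.9-fold above standard diet and no less than 17.0-fold above anti-VLA-4. Both bounds depend on the scaling: in log2 they were 3.89 and -4.09, and over the other scalings they came as near to 0 as 2.30 and -0.89. Nr2f1 had levels of 0.0343, 0.215 and 0.114. Fgf15 was well above background on standard diet alone, at a level of 0.0504.

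Of 18 other genes described as FXR targets, 1 was 2-fold higher and 0 lower on HFD-IgG than on standard diet (median -0.04), although up to 6 were lower under another scaling. With anti-VLA-4 over HFD-IgG, 1 was higher and 0 lower, while 12 lay above 0 and 6 below. The median was 0.22, against -0.06 over all genes and -0.01 over bright ones. The gene at least 2-fold higher was Fga, a fibrinogen chain, with levels of 37.7, 27.7 and 57.9. Osgin1, an oxidative stress response gene, had levels of 11.6, 12.0 and 22.7. Slc51b, a subunit of the basolateral bile acid exporter, had levels of 0.0815, 0.107 and 0.121, while its partner Slc51a was not well above background on any array. The lists share members, such as Cyp2c70 and Mafg, and are not separate counts.

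**Figure D4:**
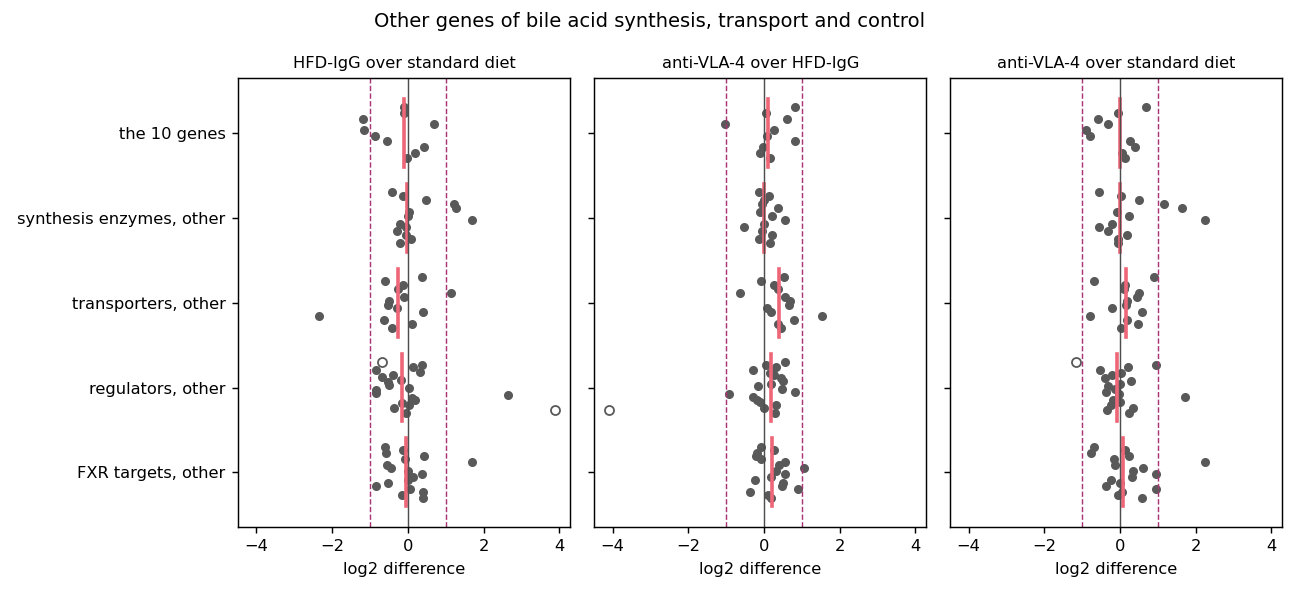
Log2 difference (x axis) of the 10 genes and of the other genes of synthesis, transport, control and FXR response (y axis), 1 point per gene, with the median of a list as a red bar, dashed lines at 2-fold and open points where 1 array was not well above background so that the value is a bound. Slco1a1 lies lowest among transporters in the first panel and highest in the second, and Cyp2c70 lies highest among synthesis enzymes in both panels against standard diet.

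Markers of other liver cells differed between the arrays. In bulk RNA, fewer cells of a type and less RNA per cell cannot be told apart. The summed level of 15 Kupffer cell markers was 12.3 on standard diet, 79.8 on HFD-IgG and 60.2 on anti-VLA-4, and 15 of 15 were at least 2-fold higher on HFD-IgG than on standard diet. For 15 endothelial markers it was 16.7, 67.3 and 39.3, with 13 of 15 higher, and for 15 stellate markers 3.58, 33.5 and 16.5, with 14 of 15 higher. Over all genes compared, 20.4% were 2-fold higher on HFD-IgG than on standard diet. The 14 neutrophil and lymphocyte markers on the array summed to 5.59, 5.57 and 7.83, with 6, 6 and 10 well above background. For anti-VLA-4 over HFD-IgG, 2 of 10 compared were at least 2-fold higher and 0 lower, against 1.90% and 16.5% of all genes. That count of 2 ran from 1 to 6 over the other scalings. On standard diet Timd4 and Cd68 of Kupffer cells, Tek and Flt4 of endothelium and 9 of 15 stellate markers were not well above background. Their part in the lower Cyp27a1, Cyp7b1, Cyp8b1 and Nr0b2 on HFD-IgG was not tested, nor was it for the differences on anti-VLA-4. Over the same arrays the 16 hepatocyte markers had a median of 0.02 for HFD-IgG over standard diet. There 9 lay above 0 and 7 below, 1 of the latter by at least 2-fold. Over the other scalings that median ran from -0.70 to 0.04, with 1 to 5 markers 2-fold lower. The median was 0.07 for anti-VLA-4 over HFD-IgG, with 9 above 0 and 7 below. It was -0.21 for anti-VLA-4 over standard diet, where 7 lay above 0 and 9 below. Cholangiocyte markers, of the bile duct cells that also take up bile acids, summed to 15.4, 11.5 and 16.8. The sum was lowest on HFD-IgG, yet 6 of 13 compared were at least 2-fold higher there than on standard diet and 0 lower (median 0.30), and 13 of 15 were well above background on HFD-IgG against 9 on each other array. Within that list Slc10a2, the bile acid carrier of ileum and bile ducts, had levels of 0.690, 2.20 and 3.69 at a probe of 68.3% purines. The duct keratins Krt7 and Krt19 and the adhesion gene Epcam were not well above background on the anti-VLA-4 array, where Slc10a2 was highest.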

How the data were processed

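Deposited spot intensities are background-subtracted, spatially detrended signals, per the file headers; the submitters' processing notes name Agilent Feature Extraction 11.0.1.1. The same software wrote the remaining (other) columns used, its spot flags, per the file headers. A linear ratio fills the deposited table and equals the processed signal over the array's 75th percentile with a largest relative deviation of 2.0e-08. Its column medians were 0.787, 0.796 and 0.810, and 0 of its columns were left unmatched to a sample. Probe positions are those of the files, on build mm9, for which no annotation of exons was used here.

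Levels were taken in log2 relative to the 75th percentile (574, 500.3 and 514 for standard diet, HFD-IgG and anti-VLA-4). Flagged spots were left out and the spots of a probe averaged, and a gene took its probe with the highest mean level. Of 39395 probes, 66.1% were named through RefSeq and the rest kept the array's name. Where an array was not well above background, its level was replaced for a bound by the lowest one well above background there, unless its own was higher. Genes named were the 10, list members at least 2-fold different with all probes one way (at most 4 a list and comparison), Fgfr4 and Klb. The other genes given with values (Hsd3b7, Acox2, Amacr, Hsd17b4, Scp2, Ch25h, Abcg5, Abcg8, Abcb4, Osgin1, Slc51b, Slc51a, Slc10a2) were chosen after their values were seen. The 10 genes and the lists were chosen with earlier results of these data known. The step that takes differences was tested on simulated arrays with known changes, where every gene counted as well above background. Bounds and scaling were not covered by that test. The alternatives covered cyclic loess, quantile scaling, normexp with offset 50, scaling to the median of bright probes, the mean over probes, other filters and thresholds, probes of at most 50% purines, and the deposited table; Slc10a1 by its other probe was added after seeing the data. Software comprised limma 3.58.1 in R 4.3.3, and pandas 2.3.3, numpy 2.4.6 and matplotlib 3.10.9 in Python 3.11.15.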

Additional observations from a re-analysis of the deposited data

How the results depend on the processing

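With no replicate, none could be left out, and no paired analysis was possible because each group has 1 array. Of 183 recomputed differences of the 10 genes, 156 moved by no more than the scanner error and 27 by more, 23 of these among the 30 under normexp. Part of the 156 could not move. The deposited table holds the same ratio, and the mean over probes can change only Slc10a1 and Slc27a5. The total is therefore no measure of how stable the differences are. Of those that had passed 2-fold, 0 changed sign. Under normexp the median of all genes moved from 0.04 to 0.48 between HFD-IgG and standard diet while that of bright genes moved from -0.10 to -0.55. The median of the 10 genes under normexp was -0.75 for HFD-IgG over standard diet and -0.54 for anti-VLA-4 over standard diet, where 2 genes were then 2-fold different. In the latter, bright genes under normexp had a median of -0.39 and a 5th percentile of -0.99. When the probe that stands for a gene had to have at most 50% purines, Cyp7a1, Cyp27a1 and Nr1h4 were left, and the median of these 3 was 0.43 with 1 gene 2-fold different for HFD-IgG over standard diet and -0.33 for anti-VLA-4 over standard diet. The other Slc10a1 probe also meets that limit; with it, a choice made after seeing the data, the medians over 4 genes were 0.05 and -0.18, again with 1 gene 2-fold different in the former. At 1.5-fold the counts were 4 for HFD-IgG over standard diet, 4 for anti-VLA-4 over HFD-IgG and 3 for anti-VLA-4 over standard diet. The share of all genes past 1.5-fold was not computed, so these counts have no background to be read against. Cyp7a1 lay just past 2-fold from HFD-IgG to anti-VLA-4 (-1.02) and was -0.66 with normexp, while Abcb11 passed 2-fold there (1.10). By its other probe, Slc10a1 was -0.34 and 0.30 in the first and second comparison. With that probe the medians of the 10 genes were -0.23, 0.21 and -0.05 in the 3 comparisons. The cause of these shifts was not tested. The number of arrays limits the precision.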
